A study of Rattus norvegicus with 8 samples.

Results

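The genes described here are a listed set of 54 genes that copy the genome and divide the cell, from the MCM helicase and the replicative DNA polymerases to the cyclins, the mitotic kinases and the spindle motors. Among the probe sets that carry a gene's symbol alone, the one of highest 8-array mean stands for the gene, and 51 of the 54 had one, out of 14217 named genes. Rrm2, the small subunit of ribonucleotide reductase, was matched only by 2 probe sets that are annotated to Rrm2l1 as well, so it was not analysed here, and neither were Cdc6 and Tpx2. The study profiled livers of male Sprague-Dawley rats, which are outbred laboratory animals, on 8 Affymetrix arrays. The iron-deficient group (4 arrays) came from rats fed a purified diet from which ferric citrate had been left out, and the control group (4 arrays) from rats fed the complete version of that diet, which is based on AIN93G with Avicel in place of cellulose. Per the labels, 7 rats ate the deficient diet and 6 the control diet, and all animals were 7 weeks old and were killed on day 17 after 1.5 h of feeding. Hemoglobin in the iron-deficient rats stood at 42% of the control level. The labels call the arrays biological replicates without saying which rats gave them. The question was how the hepatic transcriptome responds to a lack of dietary iron.

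A cell copies its DNA once per division. Cdt1 loads the ring of MCM proteins onto origins, the ring opens the double helix, primase lays down short RNA primers, and polymerases delta and epsilon extend them on the sliding clamp PCNA, which the clamp loader RFC closes around DNA. Cyclin-dependent kinases, Aurora and Polo-like kinases and the anaphase-promoting complex then drive the chromosomes apart. Most hepatocytes of an adult liver are quiescent, and the liver of a young rat still grows. Iron enters this process directly. Ribonucleotide reductase, which makes deoxyribonucleotides, carries an iron centre in its small subunit, and the catalytic subunits of polymerases delta and epsilon (Pold1 and Pole) and the large primase subunit (Prim2) bind iron-sulphur clusters.

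Replication genes and mitotic genes are known to be switched on by different promoter elements, and the members divided along that line in sequence. RefSeq promoter windows of the rat assembly GRCr8, from 250 bases before to 50 bases after the listed start, were at hand for 44 of the measured members. An E2F motif (any of TTTCCCGC, TTTCGCGC, TTTGCCGC and TTTGGCGC, on either strand) was present in 11 of 20 replication promoters (55.0%), including 5 of 5 MCM promoters. It was present in 1 of 7 promoters of cyclins, their partners and transcription factors and in 0 of 17 mitosis promoters. Of all 27457 promoters, 2.25% held it, and of the 11700 promoters of genes on the array 3.65% did. A CHR motif (TTTGAA or TTCGAA, on either strand), the element bound by the DREAM complex at late cell cycle genes, was present in 12 of 17 mitosis promoters (70.6%). Replication promoters held it in 3 of 20 cases (15.0%). The background was 19.5% of all promoters and 14.0% of those of genes on the array. A CCAAT box on either strand was present in 13 of 17 mitosis promoters (76.5%) and 11 of 20 replication promoters (55.0%), against 37.7% and 37.3%. The CHR motif and the CCAAT box occurred together in 58.8% of mitosis promoters, in 7.83% of all promoters and in 5.76% of those of genes on the array. Motif matches may overlap each other, and a match describes letters in the window, not a bound site. Only 14 of the 44 listed starts coincided with the outermost annotated start of the gene, and 6 lay more than 1000 bases inside it, so the sequences printed here hold only bases upstream of the outermost start.

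**Figure D1:**
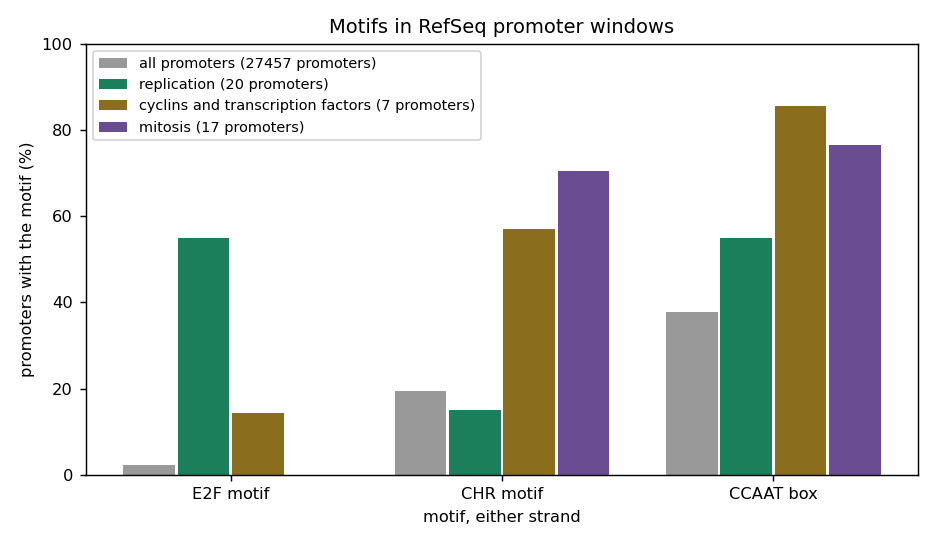
Percentage of promoter windows (vertical axis) that hold an E2F motif, a CHR motif or a CCAAT box on either strand, for all 27457 RefSeq promoters and for the members' 3 branches. The E2F bar stands at 55.0% for replication genes and at 0 for mitosis genes, and the CHR bar at 15.0% and 70.6%.

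Replication promoters are shown first, because all 6 MCM genes were lower in iron-deficient livers in the deposited values. Capitals mark motif matches in all sequences, which read 5′ to 3′ on the gene's strand.
Mcm5, MCM helicase subunit, chr19:13488563-13488812, plus strand, 250 bases: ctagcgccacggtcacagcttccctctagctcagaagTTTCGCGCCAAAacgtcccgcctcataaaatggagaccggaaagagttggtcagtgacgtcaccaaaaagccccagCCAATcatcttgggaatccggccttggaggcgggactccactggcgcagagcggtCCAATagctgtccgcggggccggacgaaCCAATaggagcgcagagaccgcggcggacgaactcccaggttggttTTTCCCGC
Mcm6, MCM helicase subunit, chr13:42404353-42404602, minus strand, 250 bases: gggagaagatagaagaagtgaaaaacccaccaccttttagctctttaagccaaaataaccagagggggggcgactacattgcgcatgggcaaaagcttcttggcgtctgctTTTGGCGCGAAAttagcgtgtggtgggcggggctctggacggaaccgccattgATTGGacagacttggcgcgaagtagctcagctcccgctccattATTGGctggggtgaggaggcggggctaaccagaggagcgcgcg
Mcm7, MCM helicase subunit, chr12:22163321-22163428, minus strand, 108 bases: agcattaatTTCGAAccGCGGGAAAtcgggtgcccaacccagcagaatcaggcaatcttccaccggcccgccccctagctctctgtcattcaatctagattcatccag
In these sequences the capitals are E2F motifs, CCAAT boxes (ATTGG on the opposite strand) and, in Mcm7, a CHR motif.

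For comparison, 3 promoters of genes that act later in the cycle carry the CHR and CCAAT pair.
Cdk1, the kinase that starts mitosis, chr20:19265043-19265251, plus strand, 209 bases: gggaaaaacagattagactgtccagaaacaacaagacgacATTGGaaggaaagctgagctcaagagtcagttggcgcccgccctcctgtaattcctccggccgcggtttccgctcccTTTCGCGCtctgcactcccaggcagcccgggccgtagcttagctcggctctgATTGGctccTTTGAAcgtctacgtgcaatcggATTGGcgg
Cdc20, an activator of the anaphase-promoting complex, chr5:137255800-137256049, minus strand, 250 bases: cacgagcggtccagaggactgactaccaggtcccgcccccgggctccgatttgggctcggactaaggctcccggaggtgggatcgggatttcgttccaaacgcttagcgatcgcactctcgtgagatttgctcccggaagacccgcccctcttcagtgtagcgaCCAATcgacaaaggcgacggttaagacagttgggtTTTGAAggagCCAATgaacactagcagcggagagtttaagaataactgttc
Top2a, the topoisomerase that untangles sister chromosomes, chr10:84473094-84473343, minus strand, 250 bases: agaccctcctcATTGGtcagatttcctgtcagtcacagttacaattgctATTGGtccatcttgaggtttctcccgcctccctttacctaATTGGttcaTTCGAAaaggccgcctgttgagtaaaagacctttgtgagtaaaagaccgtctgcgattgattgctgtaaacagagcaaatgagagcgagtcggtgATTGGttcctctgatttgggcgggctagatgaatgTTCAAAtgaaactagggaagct
Cdk1 holds an E2F motif as well, and Cdc20 and Top2a do not.

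Deposited values, read as log2, lie between 5.32 and 16.1, with array medians from 7.11994 to 7.12068. These values hold differences between arrays in compressed form, and probe sets vary in how strongly they are compressed. The within-group SD of the members ran from 8.8e-07 to 0.00241, a 2740-fold range. For that reason no difference can be read as a fold change, and its size cannot be set against that of another gene. Levels and differences are given in millionths of a log2 unit away from the gene's own mean over the 8 arrays, and each difference is also given as a standardised difference, which is iron-deficient minus control divided by the within-group SD. Tfrc, the transferrin receptor that rises when cells lack iron, was higher in all 4 iron-deficient arrays (11.019 against 10.981, difference 0.0373 ± 0.00145 SE, adjusted p = 0.0012 in limma). Across the 31042 probe sets tested, 10 (0.0322%) passed an adjusted p of 0.05, and 6 of the 14217 named genes (0.0422%) did. The members' means lay between the 1.0 and the 92.97 percentile of probe set means. Cdt1, Ccna2, Aurkb, Bub1, Ttk, Mki67 and Cdkn3 lay below the 25th percentile (6.548), where expression above background was not shown.

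No member passed the threshold, with adjusted p-values from 0.178 to 0.996 in limma. At an unadjusted p under 0.05, 7 of 51 members (13.7%) stood apart, against a background of 13.2% of all named genes. All 7 were lower in iron-deficient livers, where the background is 7.5% lower and 5.74% higher. They were Mcm6 and Mcm7 of the helicase, Rfc2, Pold1 and Lig1 of the replication fork, and Aurka and Cdca8 of mitosis. The groups did not overlap for 5 members (9.8%), against 7.82% of all named genes. All 5 (Mcm6, Mcm7, Rfc2, Lig1 and Aurka) were lower, against 4.4% of all named genes lower without overlap. Both total shares were near their background. In bulk liver RNA, fewer cells of a type and less RNA per cell cannot be told apart.

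By branch, 16 of 21 replication genes were lower in iron-deficient livers (median standardised difference -0.712, 5 with an unadjusted p under 0.05), as were 4 of 11 cyclins, partners and transcription factors (median 0.119, 0 with such a p) and 10 of 19 mitosis genes (median -0.0578, 2 with such a p). Over all named genes 53.0% were lower and the median was -0.0727. An unadjusted p under 0.05 was found for 23.8% of replication genes, against 13.2% of all named genes. In both other branches the share lay below that of all named genes. The branch counts depended on the scaling of the arrays. After quantile normalization 13 of 21 replication, 9 of 11 cyclin and transcription factor and 14 of 19 mitosis genes were lower (medians -0.317, -0.595 and -0.68). Without Hamp the counts were 17, 10 and 17, and after median centring 5, 2 and 0. Of the 51 members 41.2% were higher, and this share moved as well. It was 29.4% after quantile normalization, 13.7% after quantile normalization without Hamp (the gene of the iron hormone hepcidin, at 6.98, 10.58, 6.99 and 6.93 in iron-deficient livers and at 15.99 to 16.10 in controls), and 86.3% after median centring, which shifted the median difference of all probe sets up by 5.06e-05 on the log2 scale. The share of all named genes that were higher moved along with it and was 47.0%, 56.5%, 36.1% and 90.8% in the same order. Leaving out control 1 turned the members' median from -0.236 to 0.1, left 15 of 21 replication genes lower (median -0.243), and left 6 of 19 mitosis genes lower.

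**Figure D2:**
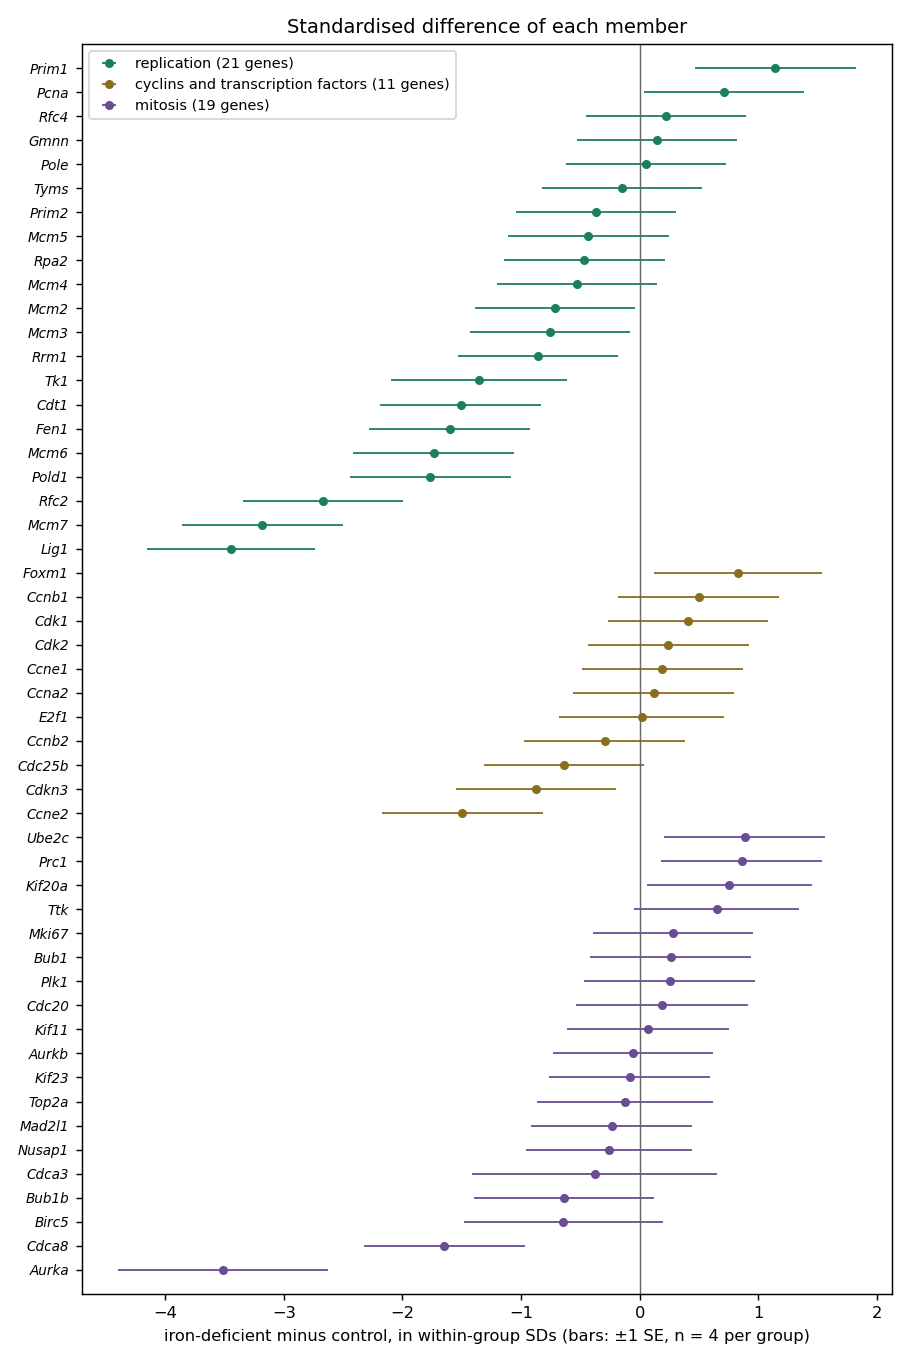
Standardised difference of each of the 51 members (horizontal axis, iron-deficient minus control in within-group SDs) with 1 SE to either side, sorted within replication, cyclins and transcription factors, and mitosis. Lig1, Mcm7, Rfc2 and Aurka lie farthest to the left, at -3.44, -3.18, -2.67 and -3.51, and no member lies beyond 1.15 on the right.

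The MCM helicase is a ring of 6 different subunits. Its 6 genes were all lower in iron-deficient livers in the deposited values, in each of the 8 fits that left out an array and after quantile normalization without Hamp, whereas 5 of 6 were lower after quantile normalization and 2 of 6 after median centring. Standardised differences were -3.18 for Mcm7, -1.74 for Mcm6, -0.755 for Mcm3, -0.712 for Mcm2, -0.526 for Mcm4 and -0.431 for Mcm5. Mcm7 (mean 8.49) stood at -14.3, -9.62, -13.4 and -21.9 millionths in iron-deficient livers and at 28.3, 6.22, 21.6 and 3.08 in controls. The groups did not overlap, and the difference was -29.6 ± 6.33 millionths (SE, limma adjusted p = 0.19). After quantile normalization Mcm7 turned higher (0.000235 ± 0.0001725 on the log2 scale, SE). It was also higher after median centring, but by less than its SE (2.1e-05 ± 0.0002153). Mcm6 (mean 6.55, just above the 25th percentile) stood at -1130, -1624, -1872 and -3743 millionths in iron-deficient livers and at 6850, 837, 870 and -187 in controls. The groups did not overlap here either, although control 1 lay far above the other controls, and the difference was -4184 ± 1628 millionths (SE, limma adjusted p = 0.412). The other 4 subunits had overlapping groups and adjusted p-values from 0.742 to 0.873. Mcm2 stood at -42.6, 27.4, -23.1 and -42.4 millionths in iron-deficient livers and at 127, 6.03, -30.3 and -22.1 in controls, so that control 1 alone lay above every iron-deficient array.

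**Figure D3:**
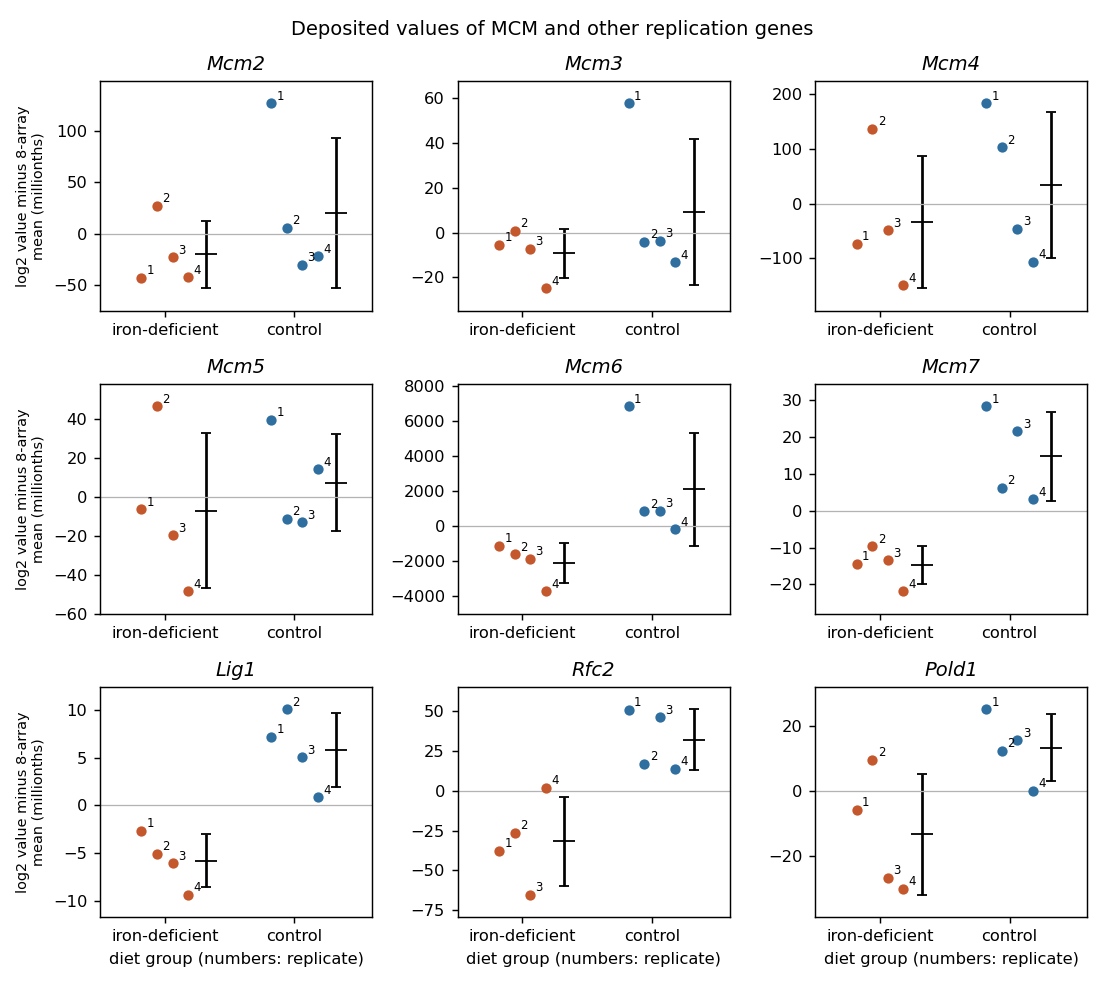
Deposited log2 values of the 6 MCM genes and of Lig1, Rfc2 and Pold1, as millionths of a log2 unit from the gene's 8-array mean (vertical axis, a different range in each panel), for the 4 iron-deficient and 4 control arrays. Numbers give the replicate and bars the mean ± SD of each group. Mcm6, Mcm7, Lig1 and Rfc2 do not overlap between the groups, and control 1 is the highest array in 5 of the 6 MCM panels.

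The 2 measured licensing factors went different ways. Cdt1, which loads the MCM ring, had a standardised difference of -1.51 (limma adjusted p = 0.467) and lay below the 25th percentile. It stood at -454, -110, -807 and -859 millionths in iron-deficient livers and at 1964, -11.3, 501 and -223 in controls. Its groups overlapped, with control 1 again the highest array. Gmnn, geminin, the protein that holds Cdt1 inactive, had a standardised difference of 0.146 (limma adjusted p = 0.968).

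Genes of nucleotide supply were lower in 3 of 3 cases, and none had an unadjusted p under 0.05. The iron-carrying subunit Rrm2 was not analysed here. Its partner Rrm1, the large subunit with the catalytic site, had a standardised difference of -0.855 (-16.5 ± 13.1 millionths, SE, limma adjusted p = 0.702). Tk1, thymidine kinase, which recycles thymidine in S phase, stood at -0.828, -1.70, 0.168 and -3.91 millionths in iron-deficient livers and at 3.87, 0.504, 3.76 and -1.87 in controls. Its groups overlapped, and the standardised difference was -1.35 (limma adjusted p = 0.555). The other 2 probe sets of Tk1 were lower as well (-1.64 and -1.11). Tyms, which makes thymidylate, differed by -0.146. After quantile normalization it was the only member past the threshold (-0.000269 ± 5.26e-05 on the log2 scale, SE, limma adjusted p = 0.0472). In that scaling 1 of 51 members passed, against 1093 of all 31042 probe sets tested. Without Hamp in the quantile normalization no member passed.

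Of the 3 DNA-synthesising subunits with an iron-sulphur cluster, Pold1 and Prim2 were lower and Pole was near 0. All 3 were lower after quantile normalization with or without Hamp, but Pole by less than its SE in both. With Hamp, Prim2 was also lower by less than its SE (-4.757e-05 ± 0.0001024 on the log2 scale). After median centring all 3 were higher, each by less than its SE (SEs from 0.0002137 to 0.000216 on the log2 scale). Pold1, the catalytic subunit of polymerase delta, stood at -5.84, 9.56, -26.8 and -30.4 millionths in iron-deficient livers and at 25.3, 12.4, 15.7 and 0.0532 in controls. Iron-deficient 2 lay above control 4, so the groups overlapped, and the difference was -26.7 ± 10.3 millionths (SE, standardised -1.76, limma adjusted p = 0.406). Pole, the catalytic subunit of polymerase epsilon, stood at 11.4, 3.38, -4.31 and -8.65 millionths in iron-deficient livers and at 27.0, -11.8, 6.55 and -23.5 in controls. The iron-deficient values all lay inside the control range, and the difference was 0.908 ± 11.4 millionths (SE, limma adjusted p = 0.991). Prim2, the cluster-bearing primase subunit, stood at 71.0, -41.4, -46.1 and -16.5 millionths in iron-deficient livers and at 16.1, 38.0, 17.7 and -38.8 in controls. Iron-deficient 1 was the highest array and iron-deficient 3 the lowest, and the difference was -16.5 ± 30.4 millionths (SE, limma adjusted p = 0.896). Prim1, the catalytic primase subunit that holds no cluster, had the largest positive standardised difference of any member, 1.15. It stood at -74.0, 1560, 2476 and -153 millionths in iron-deficient livers and at 1150, 299, -2704 and -2555 in controls (limma adjusted p = 0.588). The groups overlapped, with iron-deficient 3 the highest array and control 3 the lowest.

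Of the clamp, its loader and the strand-joining enzymes, 4 of 6 were lower, and Lig1 and Rfc2 did not overlap between the groups. Lig1, the ligase that seals Okazaki fragments, stood at -2.69, -5.08, -6.07 and -9.37 millionths in iron-deficient livers and at 7.22, 10.1, 5.05 and 0.869 in controls. The groups did not overlap, and the difference was -11.6 ± 2.38 millionths (SE, standardised -3.44), with the lowest adjusted p of the members (0.178 in limma). A second probe set of Lig1 had a standardised difference of -1.37. Rfc2, a subunit of the clamp loader, stood at -37.7, -26.3, -65.1 and 1.90 millionths in iron-deficient livers and at 50.5, 16.9, 46.0 and 13.9 in controls. The groups did not overlap, and the difference was -63.6 ± 16.1 millionths (SE, limma adjusted p = 0.249). After quantile normalization Rfc2 turned higher, by less than its SE (0.000128 ± 0.0001444 on the log2 scale). Fen1, the flap nuclease that trims Okazaki fragments, followed at -1.60 standardised (limma adjusted p = 0.445), and Rpa2, a subunit of the single-strand binding protein RPA, at -0.467. Rfc4, another clamp loader subunit, stood at 0.224 and Pcna, the clamp itself, at 0.712.

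Cyclins, their kinases and phosphatases were lower in 4 of 9 cases, with standardised differences between -1.49 and 0.499 and no unadjusted p under 0.05. Ccne2, a cyclin of S phase entry, was the farthest from 0. It stood at -10.9, 1.17, -1.13 and -15.7 millionths in iron-deficient livers and at 12.7, 8.92, 12.6 and -7.67 in controls. The groups overlapped through control 4, which was lower than 2 of the iron-deficient arrays (limma adjusted p = 0.476). Its paralogue Ccne1 differed by 0.193 standardised. The mitotic cyclins Ccnb1 and Ccnb2 stood at 0.499 and -0.296, Ccna2 at 0.119, and the kinases Cdk1 and Cdk2 at 0.408 and 0.242. The phosphatases Cdc25b, which activates CDKs, and Cdkn3, which acts against them, stood at -0.639 and -0.873. E2f1, the factor that binds E2F motifs, differed by 0.0171 standardised (limma adjusted p = 0.996). Foxm1, a factor of late cell cycle genes, stood at -2.09, 4.96, 2.12 and 0.466 millionths in iron-deficient livers and at 0.357, -0.653, -6.59 and 1.43 in controls (standardised 0.83, limma adjusted p = 0.727). Control 3 was the lowest array for Foxm1 and the groups overlapped.

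Mitotic kinases and spindle checkpoint genes were lower in 4 of 7 cases, and Aurka was the one gene of mitosis whose groups did not overlap. Aurka, the kinase that matures centrosomes, stood at -3.19, -3.15, -1.34 and -0.852 millionths in iron-deficient livers and at 2.55, 3.62, 1.53 and 0.832 in controls. The difference was -4.27 ± 1.07 millionths (SE), the largest standardised difference of the members at -3.51, with a limma adjusted p of 0.248. It kept its sign in every alternative except median centring. Its relative Aurkb differed by -0.0578 standardised, and Plk1, another mitotic kinase, by 0.255. The spindle checkpoint genes stood at 0.65 for Ttk, 0.263 for Bub1, -0.236 for Mad2l1 and -0.64 for Bub1b.

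The chromosomal passenger complex holds Aurkb at centromeres, and its subunits Cdca8, borealin, and Birc5, survivin, had standardised differences of -1.65 and -0.645. Cdca8 stood at -36.8, -0.314, -2.17 and -16.8 millionths in iron-deficient livers and at -10.0, 18.5, 17.0 and 30.7 in controls. Control 1 lay below 2 of the iron-deficient arrays, so the groups overlapped, and the difference was -28.1 ± 11.5 millionths (SE, limma adjusted p = 0.431). Mki67, the antigen used to score dividing cells, stood at -68.0, 321, 58.1 and -203 millionths in iron-deficient livers and at 23.7, 168, -130 and -170 in controls (standardised 0.282, limma adjusted p = 0.927). Its highest and its lowest array were both iron-deficient, and its mean of 6.13 lay below the 25th percentile. Top2a differed by -0.125 standardised, and Cdca3, which triggers loss of a mitotic inhibitor, by -0.38.

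Of the anaphase-promoting complex, Ube2c, the enzyme that supplies its ubiquitin, stood at -4.69, 10.6, 1.68 and 16.5 millionths in iron-deficient livers and at 9.50, -5.72, 1.51 and -29.4 in controls (standardised 0.887, limma adjusted p = 0.689). Its groups overlapped. Cdc20 differed by 0.192 standardised, but its other 4 probe sets gave -1.61, -1.73, 0.0473 and -0.575. Among spindle and cytokinesis genes, Prc1, which bundles the microtubules of the midzone, stood at 0.796, 66.1, 49.9 and -42.7 millionths in iron-deficient livers and at 18.9, 4.93, -48.1 and -49.8 in controls (standardised 0.86, limma adjusted p = 0.699). The groups overlapped, with iron-deficient 2 the highest array as it was for Mki67. The kinesins stood at 0.757 for Kif20a, 0.0712 for Kif11 and -0.0848 for Kif23, and the spindle protein Nusap1 at -0.257. In all, 14 members had more than 1 probe set, and of their 19 further probe sets 10 had the sign of the chosen one and 9 the other. Of the 19, limma put 2 at an unadjusted p under 0.05 and none past the threshold. The 2 were a probe set of Tk1 (-1.64 standardised) and a probe set of Kif23 with the other sign from the chosen one (1.81).

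**Figure D4:**
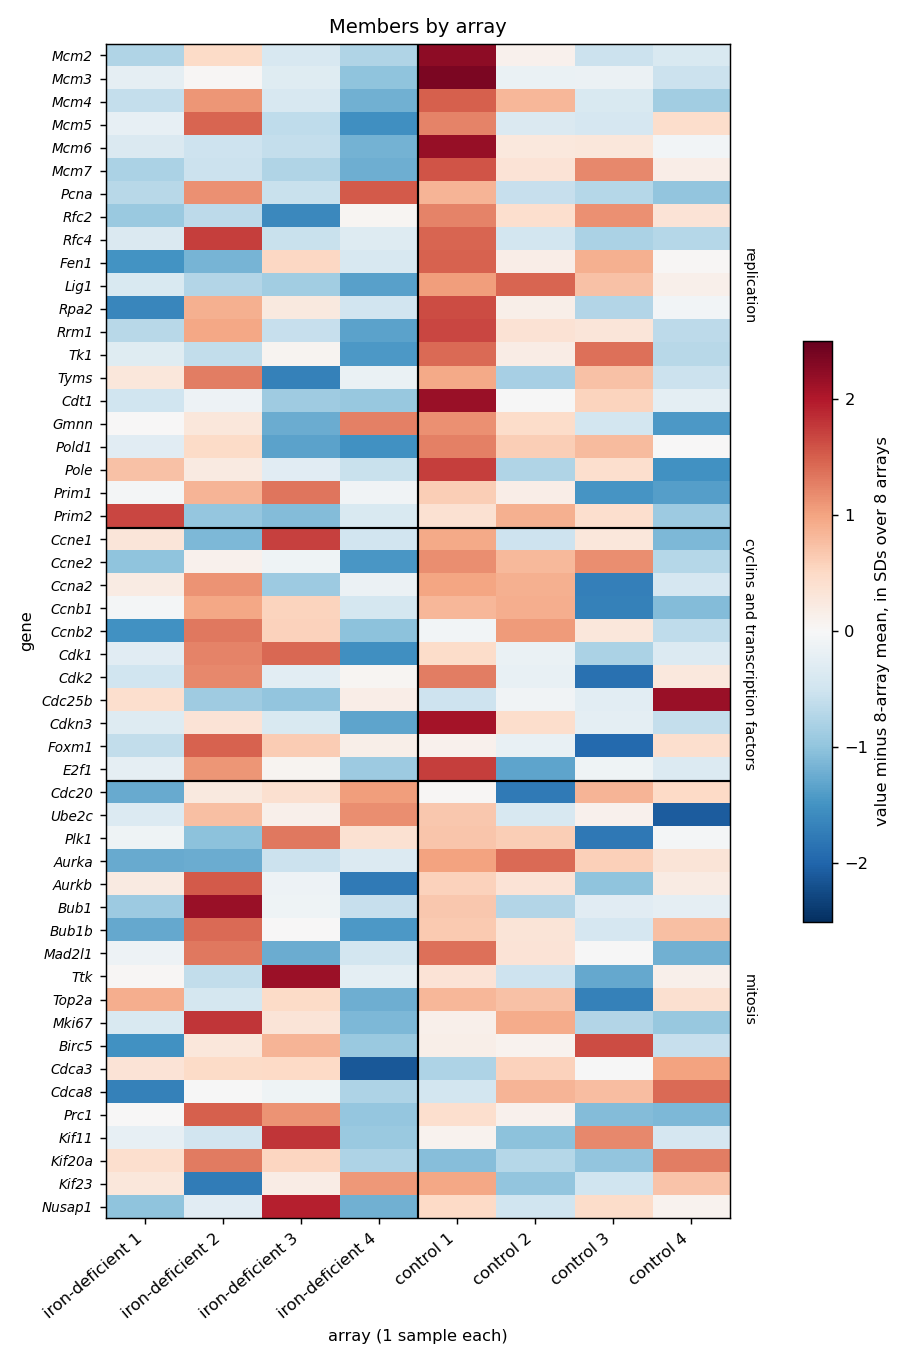
Value of each member on each array (columns), as the distance from the gene's 8-array mean in SDs over the 8 arrays (colour), with genes ordered by branch and role (rows). Control 1 is the highest array for 13 of 21 replication genes, and iron-deficient 4 is the lowest for 10 of them.

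The replication genes stood apart on single arrays. Control 1 was the highest of the 8 arrays for 18 of 51 members (35.3%), for 13 of 21 replication genes (61.9%) and for 5 of 6 MCM genes, against 11.5% of all named genes. Iron-deficient 4 was the lowest for 18 members (35.3%), for 10 replication genes (47.6%) and for 5 of 6 MCM genes, against 16.3% of all named genes. Iron-deficient 2 was the highest for 13 members (25.5%), among them 6 of 19 mitosis genes (31.6%), against 13.6%. The same array stood above the other iron-deficient arrays for Hamp, and it was the highest of the 8 arrays for Tfrc (11.022). How the iron state of single animals relates to these values was not tested. The median distance of the replication genes from their 8-array means, in SDs, was -0.358, 0.287, -0.578 and -0.748 on the iron-deficient arrays and 1.46, 0.165, 0.294 and -0.535 on the controls. Control 4 thus lay below 2 of the iron-deficient arrays. For mitosis genes the medians were -0.212, 0.278, 0.394 and -0.773 on the iron-deficient arrays and 0.508, 0.111, -0.288 and 0.134 on the controls, which lie inside the iron-deficient range but for control 1. The number of members with an unadjusted p under 0.05 was 7 in all arrays (13.7%, against 13.2% of all named genes). It was 4 (7.84%) without iron-deficient 4, without control 2 or without control 3, against 11.6%, 10.2% and 9.77% of all named genes. Without control 4 it was 11 (21.6%), against 13.3%.

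**Figure D5:**
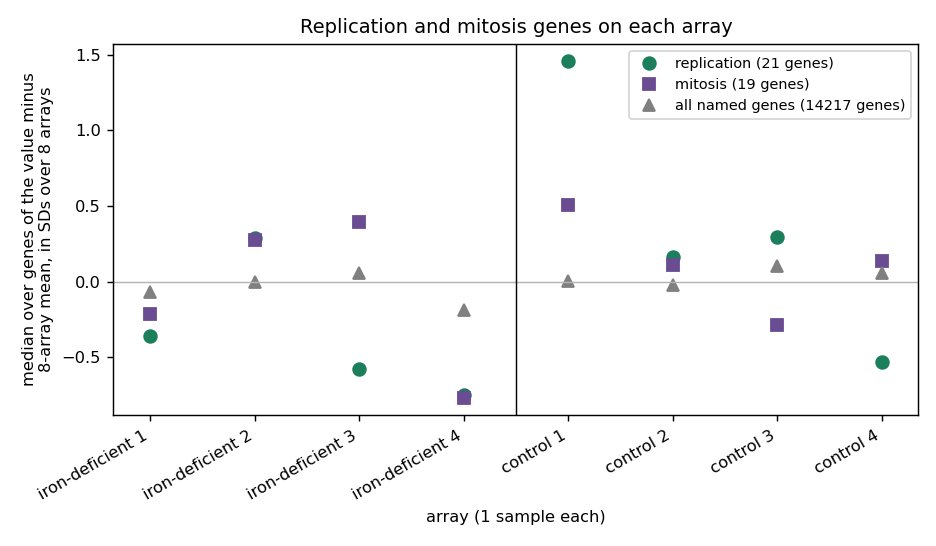
Median distance of replication genes, mitosis genes and all named genes from their 8-array means, in SDs (vertical axis), on each array (horizontal axis). Replication genes reach 1.46 on control 1 and -0.748 on iron-deficient 4, while the median of all named genes stays between -0.188 and 0.102.

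The members were also compared within groups, by correlating values after subtracting each group's mean over the 8 arrays. These correlations are given as a description, since the genes share the same arrays. The 15 pairs of MCM genes had a median r of 0.721, from 0.504 (Mcm5 with Mcm7) to 0.991 (Mcm3 with Mcm6). Without control 1 the median was 0.631. All 210 pairs of replication genes had a median r of 0.477, or 0.264 without control 1. The median was 0.128 for pairs of mitosis genes, 0.109 for replication genes paired with mitosis genes and 0.00514 for all pairs of named genes. An r above 0.7 was found for 60.0% of MCM pairs, 23.8% of replication pairs, 7.6% of mitosis pairs and 4.49% of all pairs. Without control 1 the share was 33.3% of MCM pairs (lowest r 0.173), 17.1% of replication pairs and 18 of 171 mitosis pairs. Over the same 8 arrays, the named genes outside the list most like Mki67 were Sik1 (r = 0.981), Ect2 (0.979), Ada (0.968), Wac-ps1 (0.967) and Zbtb11 (0.967). Among the members Prc1 (0.902) and Mcm4 (0.881) were the most like Mki67. These genes were picked for the highest r, those outside the list from among the 14217 named genes, and over only 8 arrays. The ranking therefore does not show that they are expressed together with Mki67. The mean of Mki67 lay at the 7.24 percentile of probe set means, where expression above background was not shown.

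The rest of the pathway was taken from lists of further genes. Other replication genes were measured in 37 of 44 cases, and 27 of 37 were lower, or 22 after quantile normalization, 26 without Hamp and 1 after median centring. None passed the threshold, and 3 had an unadjusted p under 0.05 (8.11%, against 13.2% of all named genes). Pold2, the small subunit of polymerase delta, stood at -18.4, -20.0, -10.9 and -29.7 millionths in iron-deficient livers and at 28.5, 21.1, 17.9 and 11.5 in controls. The groups did not overlap, and the difference was -39.5 ± 5.05 millionths (SE, standardised -5.33, limma adjusted p = 0.0735). It lay farther from 0 than its partner Pold1 at -1.76, and it turned higher after quantile normalization. After median centring it was higher by less than its SE (1.11e-05 ± 0.0002155 on the log2 scale). Rnaseh2a, the catalytic subunit of RNase H2, stood at -2.46 standardised (limma adjusted p = 0.276), and Asf1b, a histone chaperone, at -1.63 (0.455). Pole4, an accessory subunit of polymerase epsilon, went the other way at 1.70 (limma adjusted p = 0.418).

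Other mitosis genes were measured in 48 of 57 cases, with 24 lower and 24 higher. The number lower was 32 after quantile normalization, 36 without Hamp and 2 after median centring. In the deposited scaling 4 had an unadjusted p under 0.05 (8.33%, against 13.2% of all named genes). Tacc3, a spindle protein that is a substrate of the Aurka kinase, stood at 17.4, 8.69, 10.9 and 22.5 millionths in iron-deficient livers and at -19.1, -20.2, -6.55 and -13.5 in controls. It was higher without overlap (standardised 4.73, limma adjusted p = 0.096). After quantile normalization with or without Hamp it turned lower, by less than its SE (-4.85e-05 ± 0.0001256 and -0.00011 ± 0.0001321 on the log2 scale). Its second probe set differed by 2.42 ± 6.73 millionths (SE, limma adjusted p = 0.938). Lmnb1, a lamin of the nuclear envelope, Cks2, a CDK-binding subunit, and Ncapd2, a condensin subunit, were lower by -2.07, -1.98 and -1.75 standardised (limma adjusted p = 0.342, 0.359 and 0.411). The other 2 probe sets of Lmnb1 were higher (0.768 and 0.614 standardised). None of the 48 genes passed the threshold.

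Of 19 further DNA enzymes that hold iron and factors that deliver iron-sulphur clusters to them, 13 were measured and 8 were lower, or 3 after quantile normalization, 7 without Hamp and 0 after median centring. Nthl1, a DNA glycosylase with an iron-sulphur cluster, was the one gene with an unadjusted p under 0.05. The share was 7.69%, against 13.2% of all named genes. The values of Nthl1 did not overlap between the groups (-13.0 ± 3.95 millionths, SE, limma adjusted p = 0.316). A second probe set of Nthl1 differed by -1.26 ± 1.86 millionths (SE, limma adjusted p = 0.862). After quantile normalization Nthl1 turned higher (0.000183 ± 0.0001742 on the log2 scale, SE). It was also higher after median centring, by less than its SE. The delivery factors Ciao2b, Nubp1 and Nubp2 stood at -1.33, 1.03 and 0.949 standardised, with limma adjusted p-values from 0.533 to 0.664. None of the 13 passed the threshold.

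Genes that govern entry into and arrest of the cycle were measured in 16 of 18 cases. Of these 14 were lower, or 7 after quantile normalization, 11 without Hamp and 4 after median centring. In the deposited scaling 5 had an unadjusted p under 0.05 (31.2%, against 13.2% of all named genes and 7.5% lower). These 5 (Myc, Ccnd1, Ccnd3, Gadd45a and Cdkn2c) were lower without overlap, against 4.4% of all named genes, but none passed the threshold. Myc, a growth-promoting factor, stood at 6.940, 6.944, 6.933 and 6.938 on the log2 scale in iron-deficient livers and at 6.973, 6.971, 6.982 and 6.961 in controls (standardised -4.91, limma adjusted p = 0.089). Ccnd1, cyclin D1, which starts the cycle with CDK4 and CDK6, stood at 8.03, 8.13, 8.04 and 7.89 in iron-deficient livers and at 8.33, 8.31, 8.34 and 8.26 in controls. The difference was -0.29 ± 0.049 on the log2 scale (SE, standardised -3.99, limma adjusted p = 0.131). Ccnd1 and Myc passed the threshold after quantile normalization and after median centring, where 1093 and 63 probe sets passed in place of 10. Without Hamp in the quantile normalization neither passed (limma adjusted p = 0.134 and 0.0662). Neither passed with the replicate number as a block (limma adjusted p = 0.323 and 0.332). Ccnd3, a related cyclin, and Gadd45a, a damage-induced inhibitor of the cycle, stood at -2.87 and -2.21 standardised. Ccnd3 turned higher after quantile normalization with or without Hamp and after median centring. The list thus mixes promoters and inhibitors of the cycle, and both kinds are among the 5.

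Levels of marker genes of liver cell types were set beside these results. Endothelial markers were higher in 4 of 5 cases and stellate cell markers in 3 of 5. In each list 3 genes (60.0%) had an unadjusted p under 0.05, against 13.2% of all named genes. The same genes did not overlap between the groups, against 7.82% of all named genes. Kdr of the endothelial list (-0.824 standardised) and Des and Col1a1 of the stellate list (-0.318 and -0.354) were lower. The mean level over the endothelial list ran from 9.1747 to 9.1751 on iron-deficient arrays and from 9.1739 to 9.1741 on controls. For stellate genes it ran from 8.2215 to 8.2221 against 8.2206 to 8.2211. Since probe sets are unequally compressed, such a mean mostly follows the genes with the largest differences. These were Stab2 (0.00225 on the log2 scale) and Flt1 (0.00246) for endothelial genes, and Dcn (0.00276) and Col3a1 (0.00199) for stellate genes. Kupffer cell and macrophage markers were higher in 5 of 5 cases, 1 with an unadjusted p under 0.05 (mean level 9.2145 to 9.2157 against 9.2137 to 9.2143). That mean mostly followed Lyz2, which differed by 0.00597 on the log2 scale, while the others differed by 6.63e-06 to 8.66e-05. Hepatocyte markers were higher in 2 of 5 and lymphocyte markers in 2 of 5, with none at such a p. Erythroid markers, which can come from blood or its precursors, were higher in 5 of 7 measured genes and overlapped as a list (7.9828 to 7.986 against 7.9824 to 7.9855). Of these 7, 2 (28.6%) had an unadjusted p under 0.05, Ahsp, a hemoglobin chaperone, higher without overlap (2.93 standardised) and Gata1, an erythroid transcription factor, lower (-1.93). Cholangiocyte markers were higher in 2 of 4. The lowest deposited value of any probe set was 5.32, so no marker is listed at 0. No marker passed the threshold in limma, and the part of these cell types in the values of the replication and mitosis genes was not tested.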

How the data were processed

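The deposited table holds the authors' values for 31099 probe sets on 8 arrays, read as log2 from the range of the deposited values, since no label states the scale. The authors' steps of probe summary and array normalization are not given in the sources used here. After 57 control probe sets were left out, iron-deficient minus control was fitted without a block in limma 3.58.1 (lmFit, eBayes; R 4.3.3) on 31042 probe sets, and p-values were adjusted by Benjamini-Hochberg over all of them (threshold 0.05). Genes came from the platform annotation, with symbols updated by gene identifier. Of the probe sets, 20826 had 1 symbol (20758 matched by identifier), 436 had several and 9780 had none, and a gene took its probe set with the highest mean. Summaries used Python 3.11.15 and pandas 2.3.3. The genes and lists were chosen with earlier results of these data known.

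Genes named with values were the members with an unadjusted p under 0.05, those with the largest standardised difference in their role, the iron-related polymerase and primase genes, and up to 4 genes of each further list by lowest p. Other members are named to describe levels and the spread between arrays, and Tyms under quantile normalization was singled out after its values were seen. With 4 arrays in each group, their number limits the precision. The p-values measure the spread between these arrays. In simulated data with the spread of the 31042 probe sets, limma recovered 0%, 26%, 88% and 100% of 50 probe sets shifted by 2, 4, 8 and 16 SDs each, with 8 false calls. The simulated probe sets varied independently, and more of them passed than in the deposited values, which makes the adjusted threshold easier to reach. These shares can therefore overstate what could be detected here. Hamp, at -6.38 SDs, had a limma adjusted p of 0.0735. Same-numbered arrays had correlations of deviations of -0.111, 0.0245, -0.0251 and -0.0773, so the numbers were not used as pairs. Alternatives were quantile normalization with and without Hamp, median centring, a filter on low values, a replicate block, leaving out single arrays, eBayes with trend or robust and other choices of probe set.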

Additional observations from a re-analysis of the deposited data

Results flagged for a closer look

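Within groups of 4 arrays, 8 values among 102 groups of the members lay so far from the other 3 that the gap, as a share of the group's range, exceeded Dixon's limit. Chance at 1 in 20 gives 5.1. All values are on the log2 scale, and 3 of the 8 are on control 1. Mcm3 stood at 7.0298504 on control 1, above the other arrays of its group at 7.0297794 to 7.0297890. Mcm6 stood at 6.5556566 on control 1, above the other arrays of its group at 6.5486197 to 6.5496766. Rfc4 stood at 7.7236826 on iron-deficient 2, above the other arrays of its group at 7.7236367 to 7.7236413. Rfc4 stood at 7.7236773 on control 1, above the other arrays of its group at 7.7236322 to 7.7236389. Cdc25b stood at 6.8983461 on control 4, above the other arrays of its group at 6.8952111 to 6.8957281. Top2a stood at 6.8640122 on control 3, below the other arrays of its group at 6.8640167 to 6.8640176. Cdca3 stood at 6.9116521 on iron-deficient 4, below the other arrays of its group at 6.9116542 to 6.9116543. Kif20a stood at 6.6863611 on control 4, above the other arrays of its group at 6.6863507 to 6.6863523. Mcm3 and Mcm6, helicase subunits, were high together on control 1, and Mcm6 is one of the genes whose groups do not overlap.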

How the results depend on the processing

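Of 32 genes named with values, 8 kept their direction in every alternative run, of which there were up to 17, and 4 of 542 values under alternatives passed the threshold, all of them for Myc or Ccnd1. After quantile normalization 1093 probe sets passed in place of 10, 1 member passed in place of 0, and 3 members did not overlap in place of 5. Without Hamp in that normalization the counts were 83 probe sets, 7 members higher in place of 21, and 3 members without overlap. After median centring they were 63 probe sets, 44 members higher and 2 without overlap, and the median standardised difference was 0.167. There 3 members had an unadjusted p under 0.05 in place of 7 (5.88%), while the share of all named genes fell from 13.2% to 2.16%. Centring added 5.06e-05 to the median difference of all probe sets, so it reversed the lower genes whose difference was smaller than that shift. For quantile normalization the cause was not tested. With the replicate number as a block, 1 probe set passed and no member passed. In that fit 8 members had an unadjusted p under 0.05 (15.7%, against 11.1% of all named genes). The block was fitted only as an alternative, since the numbers do not pair the arrays, and it reversed no named gene.

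Leaving out 1 array at a time gave 4 to 27 probe sets past the threshold, 27 of them without iron-deficient 3 and 4 without iron-deficient 4 or control 3. It gave 0 members past the threshold, 15 to 26 higher, 5 to 9 without overlap (9 without control 4), and a median standardised difference from -0.573 to 0.1. An unadjusted p under 0.05 was found for 4 to 11 members (7.84% to 21.6%), and for 9.77% to 14.0% of all named genes. Among named genes these fits reversed Pole alone, whose difference ran from -6.78e-06 to 1.01e-05.

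Reversed differences, on the log2 scale, were as follows, and none passed the threshold. After median centring each was smaller than its SE, and those SEs ran from 0.0002151 to 0.0002215, so the signs were not settled there. After quantile normalization some were smaller than their SE, such as Rfc2 (SE 0.0001444), and others larger, such as Rnaseh2a (SE 9.16e-05). After quantile normalization the members were Mcm7 0.000235, Tk1 4.26e-05, Rfc2 0.000128, Pole -1.58e-05, Prc1 -7.33e-05, Ube2c -9.57e-05 and Foxm1 -6.67e-05, and the other genes were Pold2 0.000265, Rnaseh2a 0.000334, Tacc3 -4.85e-05, Lmnb1 0.000234, Cks2 0.000709, Nthl1 0.000183, Ciao2b 0.000121 and Ccnd3 0.00045. Without Hamp the members were Pole -5.69e-05, Prc1 -7.33e-05, Ube2c -9.57e-05 and Foxm1 -6.67e-05, and the other genes were Pold2 0.000191, Rnaseh2a 0.000225, Tacc3 -0.00011, Lmnb1 6.09e-05, Cks2 0.00047, Ciao2b 4.45e-05, Nubp1 -0.000201 and Ccnd3 0.000305. After median centring the members were Mcm7 2.1e-05, Tk1 4.75e-05, Pold1 2.38e-05, Prim2 3.41e-05, Lig1 3.9e-05, Ccne2 3.73e-05, Aurka 4.63e-05 and Cdca8 2.25e-05, and the other genes were Pold2 1.11e-05, Rnaseh2a 1.6e-05, Asf1b 4.54e-05, Lmnb1 1.78e-05, Ncapd2 2.48e-05, Nthl1 3.75e-05, Ciao2b 4.37e-05 and Ccnd3 4.61e-05.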
